A study of Mus musculus with 6 samples.

Results

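The genes described here are the 10 genes of major histocompatibility complex (MHC) class II antigen presentation in the deposited expression tables. They are the class II chains H2-Ab1, H2-Aa and H2-Eb1, the invariant chain Cd74, the peptide editors H2-DMa, H2-DMb1 and H2-DMb2, and the transcription regulators Ciita, Rfx5 and Rfxank. They were taken by gene symbol, and all 10 were found among 52550 Ensembl gene identifiers. RNA was sequenced from epithelial cells isolated from the colon of adult male Apc Min/+ mice, aged 5 to 6 weeks. Mice of this genotype carry a truncating mutation in 1 copy of the tumour suppressor gene Apc and develop intestinal adenomas, and the control animals carried it too. One group received atorvastatin by gavage at 20 mg/kg every other day, and the other received the vehicle, 2% Tween 80, with 3 libraries per group. The labels number the libraries as replicates without saying whether each came from its own animal, so the p-values measure only the spread between these libraries, which may be technical.

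MHC class II molecules are pairs of an alpha and a beta chain that show peptides from the endosomes to CD4+ T cells. The invariant chain guides the new pair to the endosome and blocks its groove, and the DM heterodimer then exchanges the last fragment of the invariant chain for antigenic peptide. Transcription depends on promoters with an X box, bound by the RFX complex, and a Y box, bound by NF-Y. The coactivator CIITA, which interferon gamma induces, docks on these factors and sets the level. Dendritic cells, macrophages and B cells express class II constitutively, and the intestinal epithelium expresses it under the influence of interferon gamma.

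The libraries were alike in their general measures. FPKM, fragments per kilobase of gene scaled to the mapped fragments of the library, summed to 407857 to 430832 per library, and 11456 to 11655 genes reached 1 FPKM. The sequencing depth is unknown, because FPKM carries no read totals, so values near 1 FPKM have a precision known only from the spread between libraries. Markers of colon epithelium were abundant: 12 of 12 listed genes were tested, limma called none (also none at an unadjusted p under 0.05), and their median log2 fold change was -0.06. Epcam, an epithelial adhesion molecule, was at 555 ± 18.0 FPKM in the controls, against 510 ± 28.5 FPKM in the treated libraries (mean ± SD, n = 3 each).

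The class II chains, the invariant chain and the DM genes were lower with atorvastatin, while the RFX genes were not. The 6 structural and peptide-loading genes that could be tested were each lower in every atorvastatin library than in any control library, at 31.1% to 64.9% of the control mean. H2-Ab1 alone passed the test over all genes. The test took genes that reached 1 FPKM in 3 or more of the 6 libraries, among them 8 of the 10 members, and log2(FPKM + 1) was compared with limma at a Benjamini-Hochberg adjusted p under 0.05. Fold changes below are on this scale, which understates the change of low genes. Of 11644 tested genes, 47 passed (0.404%), and 29 of these were lower (0.249%). Among the 8 tested members 1 passed, downward. Groups that did not overlap, with atorvastatin lower, occurred in 6.05% of all tested genes and in 6 of the 8 members. The opposite pattern, atorvastatin higher without overlap, occurred in 12% of all genes and in 1 member, Rfxank. At an unadjusted limma p under 0.05, 4.27% of all tested genes were lower and 7.75% higher, against 6 and 2 of the 8 members. The median log2 fold change was -0.92 over the 8 tested members, -1.15 over the 6 structural and peptide-loading genes and 0.02 over all tested genes. The number of genes called rested on single libraries. It was 2, 30 and 67 without control replicate 1, 2 and 3, respectively. Without atorvastatin replicate 1, 2 and 3 it was 13, 61 and 17.

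**Figure D1:**
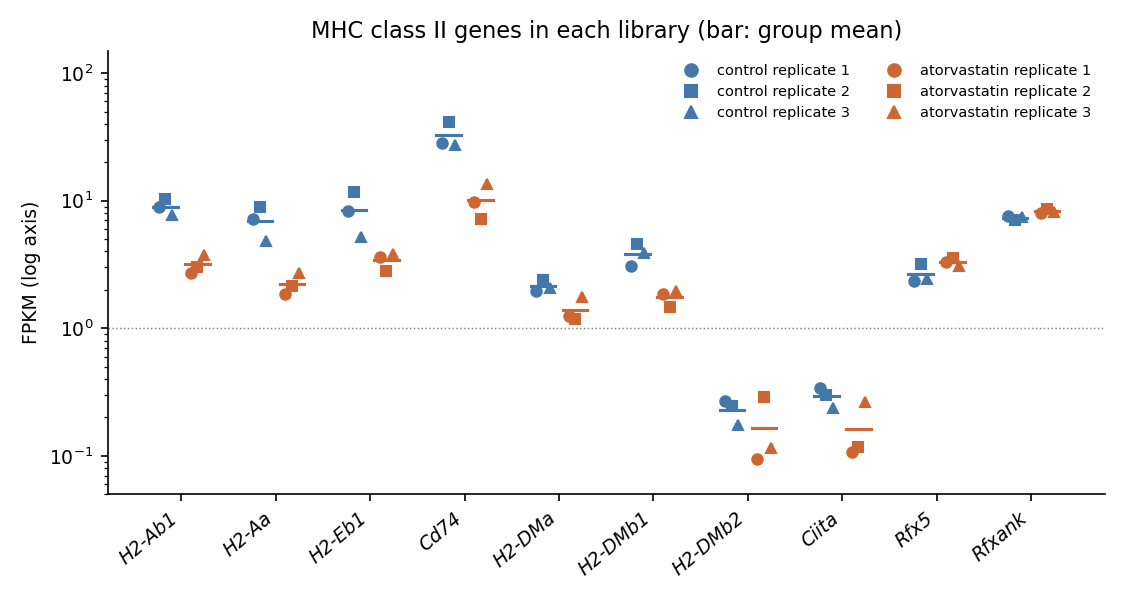
FPKM of the 10 class II genes (log axis) in each of the 6 libraries; symbols mark the replicate, bars the group mean, and the dotted line 1 FPKM. The 3 chains, Cd74, H2-DMa and H2-DMb1 show no overlap between the groups, whereas H2-DMb2 and Ciita lie below 1 FPKM in every library and overlap.

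H2-Ab1 encodes the beta chain of I-A, a class II molecule (ENSMUSG00000073421, chromosome 17, 34257689 to 34269419, plus strand, GRCm38). It was at 8.91, 10.2 and 7.77 FPKM in control replicates 1, 2 and 3, and at 2.70, 3.02 and 3.78 FPKM in atorvastatin replicates 1, 2 and 3. The groups stood far apart, and the means were 8.97 ± 1.23 and 3.17 ± 0.56 FPKM. H2-Ab1 fell by 64.7% of the control mean, with a log2 fold change of -1.26 ± 0.12 (SE; 95% interval -1.55 to -0.97; limma adjusted p = 0.0184). In the order of all tested genes from the most negative fold change it held place 19. The call depended on control replicate 1 (limma adjusted p = 0.073 when left out) and on atorvastatin replicate 1 (0.0524 when left out), and 13 of 18 alternatives kept it (limma adjusted p from 0.00652 to 0.136, the highest with no filter on low values).

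H2-Aa encodes the alpha chain that pairs with the H2-Ab1 product (ENSMUSG00000036594, chromosome 17, 34282744 to 34287823, minus strand). Its values were 7.17, 8.85 and 4.79 FPKM in the controls, against 1.85, 2.13 and 2.73 FPKM in the treated libraries. The controls spread widely, with replicate 3 lowest, yet all lay above the atorvastatin libraries. The log2 fold change was -1.27 ± 0.20 (95% interval -1.74 to -0.79), about the size of that of H2-Ab1, but with the larger spread it did not pass (limma adjusted p = 0.067). Without control replicate 3 it did (limma adjusted p = 0.0249), the only such case in 17 alternatives.

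H2-Eb1 encodes the beta chain of the second class II molecule, I-E (ENSMUSG00000060586, chromosome 17, 34305867 to 34316674, plus strand). It was at 8.24, 11.7 and 5.23 FPKM in the controls, against 3.60, 2.81 and 3.81 FPKM in the treated libraries. The gap between the lowest control and the highest atorvastatin library was the narrowest of the 3 chains in proportion to its mean, and the log2 fold change of -1.04 ± 0.25 did not pass (limma adjusted p = 0.181; 0.0416 without control replicate 3). Its alpha partner, H2-Ea, is the pseudogene H2-Ea-ps in the annotation and was listed at 0 FPKM in all 6 libraries. Mouse strains of the b haplotype carry a deletion in this gene and assemble no I-E. The labels do not give the strain background.

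Cd74 encodes the invariant chain (ENSMUSG00000024610, chromosome 18, 60803848 to 60812652, plus strand) and was the most abundant member per length in both groups. Its values were 28.6, 41.8 and 27.1 FPKM in the controls, against 9.70, 7.16 and 13.5 FPKM in the treated libraries. Each atorvastatin library was below each control library, and the group means of 32.5 ± 8.06 and 10.1 ± 3.19 FPKM differed by a log2 fold change of -1.60 ± 0.24 (95% interval -2.19 to -1.02). Only 5 of 11644 tested genes had a more negative fold change, but the gene did not pass (limma adjusted p = 0.067). It did with the abundant and mitochondrially encoded genes left out before scaling (limma adjusted p = 0.047), 1 of 18 alternatives.

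The DM genes encode the heterodimer that edits the peptide in the class II groove. H2-DMa, the alpha chain (ENSMUSG00000037649, chromosome 17, 34119541 to 34139101, plus strand), was at 1.95, 2.40 and 2.08 FPKM in the controls, against 1.25, 1.17 and 1.75 FPKM in the treated libraries. This was the smallest difference among the 6 genes, a log2 fold change of -0.40 ± 0.11 (SE; by limma, adjusted p = 0.205), and the nearest libraries of the groups, control replicate 1 and atorvastatin replicate 3, lay close together. H2-DMb1, a beta chain (ENSMUSG00000079547, chromosome 17, 34153072 to 34160230, plus strand), was at 3.08, 4.56 and 3.91 FPKM in the controls, against 1.86, 1.47 and 1.95 FPKM in the treated libraries. Its groups lay further apart, with a log2 fold change of -0.81 ± 0.13 (SE; by limma, adjusted p = 0.0626; 0.0275 with equal library totals). H2-DMb2, the second beta chain gene (ENSMUSG00000037548, chromosome 17, 34143307 to 34151555, plus strand), had 0.269, 0.247 and 0.173 FPKM in the controls, against 0.0950, 0.289 and 0.115 FPKM in the treated libraries. These overlapped and were too low for the test.

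Reads cannot be assigned with certainty for part of this group. Of the 50-base words in the longest coding transcript of H2-DMb1, 27.2% also occur in H2-DMb2, whereas none of the words of H2-Ab1, H2-Aa, H2-Eb1, Cd74 or H2-DMa occurs in another gene's transcript. H2-DMa shares 360 exonic bases with Brd2 on the opposite strand, which was listed at 36.3 to 41.5 FPKM, and the strand setting of the quantification was not given in the sources used here. Brd2, a bromodomain protein gene, had a log2 fold change of 0.03 ± 0.07, and the part of its reads in the H2-DMa value was not tested. Ciita shares 329 exonic bases with Dexi on the opposite strand, which at 1.12 to 1.66 FPKM was listed above Ciita in every library, and the part of its reads in the Ciita value was not tested either.

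Of the regulators, Ciita was too low to test and the RFX genes were not lower. Ciita, the master coactivator of class II (ENSMUSG00000022504, chromosome 16, 10480059 to 10528418, plus strand), was at 0.341, 0.301 and 0.238 FPKM in the controls, against 0.107, 0.117 and 0.262 FPKM in the treated libraries. Atorvastatin replicates 1 and 2 lay below all controls and replicate 3 among them. The gene stayed below 1 FPKM and was not tested, and in the fit with no filter its log2 fold change was -0.16 ± 0.07 (limma adjusted p = 0.666). Rfx5, the DNA-binding subunit of the RFX complex (ENSMUSG00000005774, chromosome 3, 94954075 to 94961561, plus strand), was at 2.36, 3.18 and 2.45 FPKM in the controls, against 3.30, 3.56 and 3.05 FPKM in the treated libraries. Control replicate 2 reached into the atorvastatin range, and the log2 fold change of 0.24 ± 0.10 did not pass (limma adjusted p = 0.403).

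Rfxank, the ankyrin repeat subunit of RFX (ENSMUSG00000036120, chromosome 8, 70130794 to 70139154, minus strand), was at 7.55, 7.06 and 7.39 FPKM in the controls, against 7.99, 8.59 and 8.22 FPKM in the treated libraries. All atorvastatin libraries were higher, by a small log2 fold change of 0.15 ± 0.05 (SE; by limma, adjusted p = 0.331). Rfxank shares 1341 exonic bases with Nr2c2ap on the opposite strand, which was listed at 5.87 to 7.73 FPKM. Rfxap, the third RFX subunit, was at 2.20 ± 0.11 and 2.43 ± 0.26 FPKM (limma adjusted p = 0.687).

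**Figure D2:**
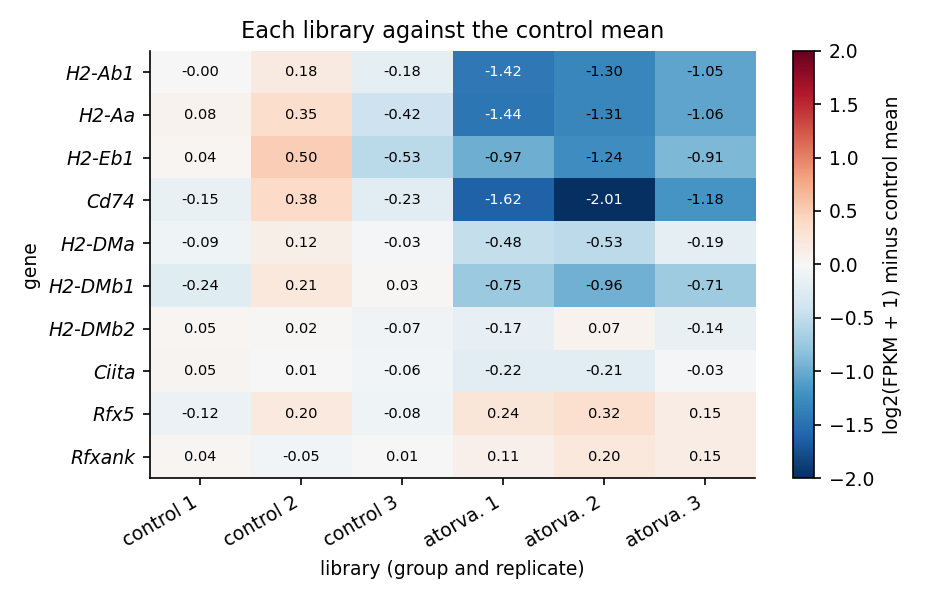
Each cell gives log2(FPKM + 1) of a gene in 1 library minus the mean of the 3 control libraries; blue is lower and red higher. The 6 upper rows are negative in every atorvastatin library, with Cd74 lowest in atorvastatin replicate 2 (-2.01), and the Rfx5 and Rfxank rows are positive there.

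The 6 structural and peptide-loading genes had the same highest library within each group. Control replicate 2 was the highest control library and atorvastatin replicate 3 the highest atorvastatin library for 6 of 6 genes. The share of all tested genes with these highest libraries was not determined, so the pattern cannot be read as particular to class II. The lowest control library was replicate 3 for 4 genes and replicate 1 for the 2 DM genes. The lowest atorvastatin library was replicate 2 for 4 genes and replicate 1 for H2-Ab1 and H2-Aa. The mitochondrially encoded ribosomal RNA mt-Rnr1 was also highest in control replicate 2 and atorvastatin replicate 3 of their groups. It was at 2156, 2631 and 1828 FPKM in the controls, against 1195, 1160 and 1526 FPKM in the treated libraries, a log2 fold change of -0.76 ± 0.16 (SE; by limma, adjusted p = 0.115). Its part in the class II values was not tested.

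Since FPKM is scaled to gene length, the levels of the members can be set in order. In control the order of mean FPKM was Cd74, H2-Ab1, H2-Eb1, Rfxank, H2-Aa, H2-DMb1, Rfx5, H2-DMa, Ciita and H2-DMb2. Cd74 stood clear of the rest, H2-Aa of H2-DMb1, and H2-DMa of Ciita, while all other neighbours overlapped. With atorvastatin, Rfxank moved to the second place at 8.27 ± 0.31 FPKM and overlapped Cd74. Rfx5, at 3.30 ± 0.25 FPKM, lay between H2-Eb1 and H2-Ab1 and overlapped both. The order of the 6 structural and peptide-loading genes differed from control only in H2-Eb1 and H2-Ab1, which overlapped in both groups.

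Ratios within a library do not depend on its total. The ratio of H2-Aa to H2-Ab1 was 0.805, 0.866 and 0.617 in control and 0.686, 0.707 and 0.721 with atorvastatin, which overlapped between the groups (difference of log2 ratios -0.10, exact permutation p = 0.5). The ratio of Cd74 to H2-Ab1 also overlapped, at 3.21, 4.08 and 3.49 in control and 3.60, 2.37 and 3.57 with atorvastatin (exact permutation p = 0.6). H2-DMa, in contrast, was higher relative to H2-Ab1 in each atorvastatin library, at 0.462, 0.389 and 0.464 against 0.219, 0.235 and 0.267 in control (difference of log2 ratios 0.87, exact permutation p = 0.1). The ratio of H2-DMb1 to H2-DMa was lower, at 1.49, 1.26 and 1.11 against 1.58, 1.90 and 1.88 (difference -0.48, exact permutation p = 0.1). With 3 libraries against 3, a two-sided exact test cannot go below 0.1, and over the 5 ratios computed the adjusted values were 0.167 for the 3 smallest and 0.6 for the other two (exact permutation tests, Benjamini-Hochberg).

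The promoters are shown for the members where the X and Y boxes could be compared, since these boxes define the class II promoter. RefSeq promoter sequences (GRCm38.p6, 250 bases before to 50 after the start) were present for 7 members, not for H2-Ab1, Cd74 and Ciita. The X box was searched as GNAAC, any 3 bases and TG, and the Y box as ATTGG, on both strands. The X box was found in 11.6% and the Y box in 37.4% of all 32851 promoters. An X box followed on the same strand by a Y box after 12 to 25 bases was found in 59 promoters (0.18%). Those of H2-Eb1 and H2-DMb1 held this pair, with 22 and 23 bases between the boxes, as did H2-Eb2 and H2-Ob of the other class II genes. The H2-Aa promoter held the Y box and no match to the X box as searched. Its stretch has gcaac beside the place of the H2-Eb1 X box, but not the TG at the searched distance. Other forms of the X box were not searched, so no absence of an X box can be read from this. In the stretches below, capitals mark the X box and the Y box as searched, and the H2-Aa stretch is aligned to that of H2-Eb1 at the Y box (H2-Eb1 chr17:34305768-34305820, plus strand; H2-Aa chr17:34287859-34287911, minus strand).
H2-Eb1: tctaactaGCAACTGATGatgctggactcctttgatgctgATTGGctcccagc
H2-Aa: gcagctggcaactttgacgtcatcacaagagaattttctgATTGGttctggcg

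The 2 DM beta genes differ in this box. In the stretch of H2-DMb1 the capitals mark the X box, and in the stretch of H2-DMb2 that matches it best they mark the 2 bases that differ (H2-DMb1 chr17:34153089-34153114, H2-DMb2 chr17:34145118-34145143, both plus strand).
H2-DMb1: tttacctaGTAACTGATGatgctagg
H2-DMb2: tttacctaTtaacCgatgatgctagg
Counted from 1 at the 5′ end of the stretch, with the H2-DMb1 base first, the differences are G9T and T14C. The first of them removes the match to the X box as searched. H2-DMb1 was at 3.85 ± 0.74 FPKM in control and H2-DMb2 at 0.23 ± 0.05 FPKM, though part of the reads of these genes cannot be assigned with certainty. H2-Aa, with no match as searched, was at 6.94 ± 2.04 FPKM in control. A relation of the box to the level was not tested. A match to these letters is a description of the sequence and no evidence of binding. Of the class I genes described below, 0 of the 11 with a promoter in the table held the pair. An interferon response element, searched as GAAA repeated with 2 bases between on both strands and present in 3.44% of all promoters, was found in none of the 7.

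The class II genes lie side by side on chromosome 17, interleaved with genes of class I peptide supply. From H2-Oa to H2-Ea-ps lie 15 genes annotated as protein coding or polymorphic pseudogene (antisense genes and processed pseudogenes were left out). Of these, 10 were tested, and 9 were lower in all atorvastatin libraries than in any control library, against 6.05% of all tested genes. The tenth was Brd2. Among the class I genes within the stretch, Tap1 and Tap2, the peptide transporter, had log2 fold changes of -0.61 ± 0.07 and -0.46 ± 0.09. Psmb8 and Psmb9, catalytic subunits of the immunoproteasome, had -0.73 ± 0.07 and -0.32 ± 0.09. Tap1 and Psmb8 passed (limma adjusted p = 0.0239 and 0.0184). H2-Oa, H2-Ob, H2-Eb2 and H2-Ea-ps, the chains of the DM inhibitor DO and the remaining class II genes, were below 1 FPKM in every library and were not tested.

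**Figure D3:**
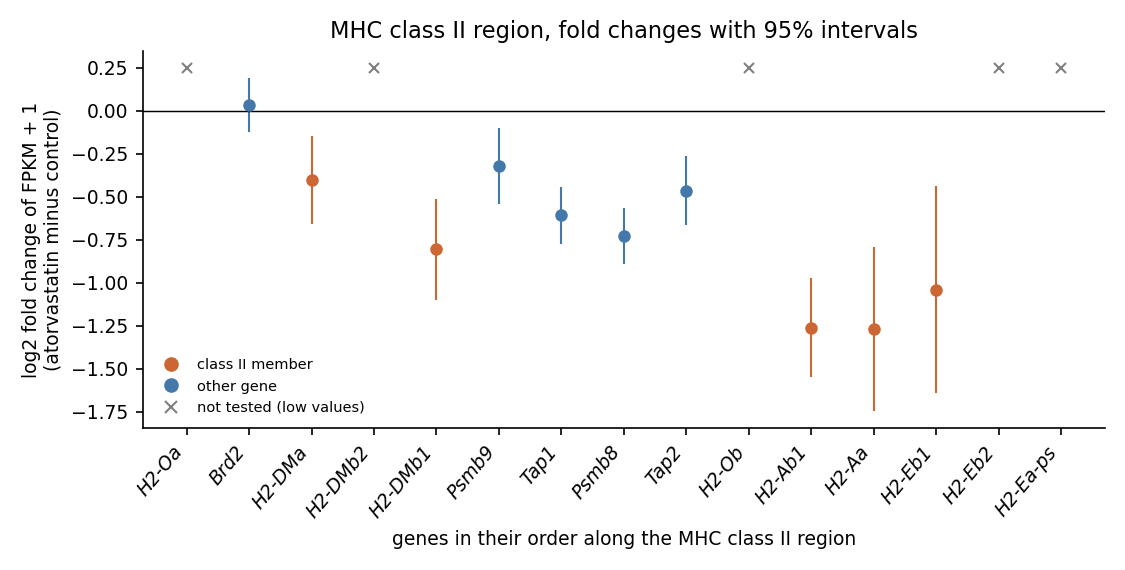
Log2 fold change of FPKM + 1 with its 95% interval for the 15 protein coding or polymorphic pseudogene entries from H2-Oa to H2-Ea-ps, in their order on the chromosome; crosses mark genes too low to test. Brd2 lies at 0.03, the class I genes between -0.32 and -0.73, and the 3 class II chains between -1.04 and -1.27.

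Upstream of Ciita lie the transducers of interferon gamma, of which those named here did not pass. Irf1, a transcription factor that interferon gamma induces and that acts on the Ciita promoter, was at 34.4 ± 3.15 and 30.6 ± 0.67 FPKM without overlap, a log2 fold change of -0.16 ± 0.07 (SE; by limma, adjusted p = 0.441). The receptor chain gene Ifngr1 and the kinase gene Jak1 were also lower without overlap, by log2 fold changes of -0.07 ± 0.05 and -0.12 ± 0.05 (limma adjusted p = 0.609 and 0.406). Ifng itself, the cytokine, was at 0.400, 0.360 and 0.448 FPKM in the controls, against 0.265, 0.119 and 0.300 FPKM in the treated libraries, below the level tested.

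The other factors of the class II promoter showed no common direction. Of 11 listed, all were tested, none passed limma's test, 5 had negative and 6 positive fold changes, and the median was 0.005. None reached an unadjusted limma p under 0.05 either. Creb1, which binds beside RFX at the X box, was at 3.67, 3.14 and 3.17 FPKM in the controls, against 1.07, 1.34 and 3.56 FPKM in the treated libraries. The first and second atorvastatin libraries were low and the third was in the control range (limma adjusted p = 0.46; 0.0386 without atorvastatin replicate 3). Nfyb, a subunit of NF-Y, was at 4.26 ± 0.28 and 4.63 ± 0.09 FPKM (limma adjusted p = 0.597).

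**Figure D4:**
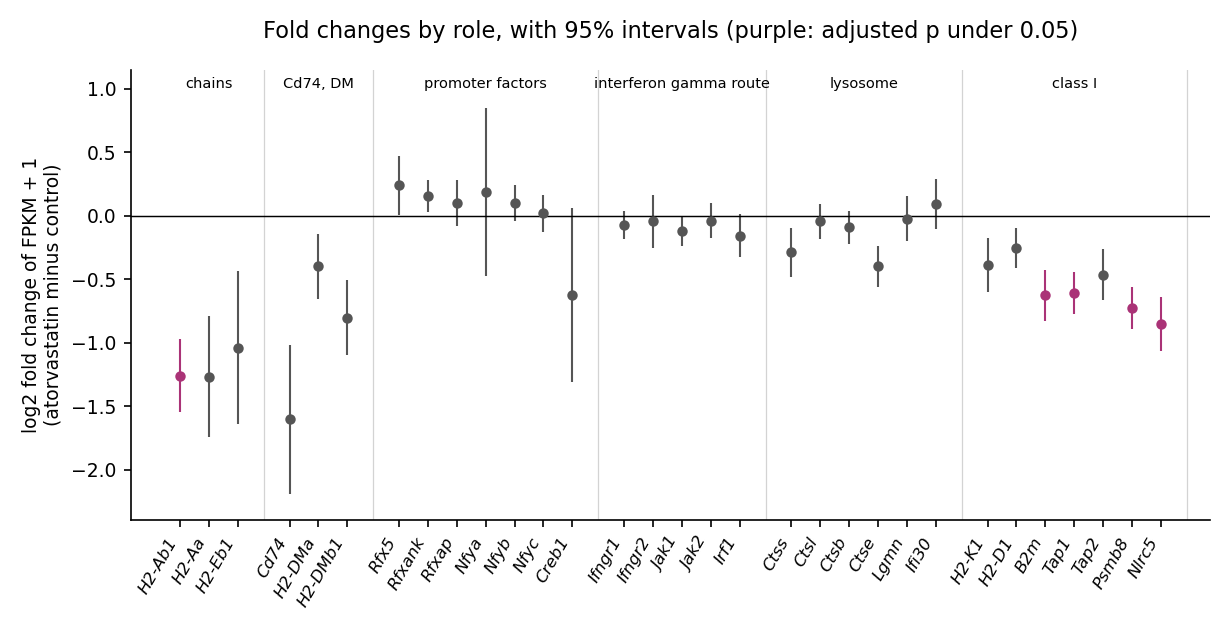
Log2 fold changes of FPKM + 1 with 95% intervals for class II genes and their pathway, grouped by role; purple marks an adjusted p under 0.05. Intervals of the chains, Cd74 and the DM genes lie below 0, and the interferon gamma genes shown lie between -0.16 and -0.04.

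Of the 10 listed genes that process antigen in the endosome and lysosome, all were tested and none passed limma's test (2 were lower at an unadjusted p under 0.05), with a median log2 fold change of -0.03. Ctss, which encodes cathepsin S, the protease that trims the invariant chain, was at 139, 128 and 113 FPKM in the controls, against 106, 106 and 99.0 FPKM in the treated libraries. The groups did not overlap, and the log2 fold change was -0.29 ± 0.08 (limma adjusted p = 0.218). Ctse, the aspartic protease cathepsin E, was at 20.7 ± 1.76 and 15.4 ± 0.57 FPKM, also without overlap (limma adjusted p = 0.072). Ifi30, a thiol reductase of the endosome, overlapped, at 45.6 ± 2.60 and 48.7 ± 4.73 FPKM (limma adjusted p = 0.735). Among 7 genes of class II turnover and surface regulation 5 were tested and none passed limma's test, adjusted or not (median 0.007). Among 7 genes of the CD4 partner and costimulation 2 were tested and none passed limma's test (1 was lower at an unadjusted p under 0.05). Of these, Cd274, the inhibitory ligand PD-L1, was at 1.86, 1.69 and 1.38 FPKM in the controls, against 0.966, 1.01 and 0.941 FPKM in the treated libraries (limma adjusted p = 0.112).

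The class I pathway, which presents peptides from the cytosol on all nucleated cells, is a comparison for class II. All 13 listed genes were tested, and 4 passed, all downward, against 0.249% of all tested genes called lower. Lower without overlap between groups were 10, against 6.05% of all tested genes, and the median log2 fold change was -0.32. Nlrc5, the class I counterpart of Ciita, was at 2.29 ± 0.24 FPKM in the controls and fell to 0.83 ± 0.14 FPKM (log2 fold change -0.85 ± 0.09; by limma, adjusted p = 0.021). It lay below 1 FPKM in every atorvastatin library, at 0.664, 0.907 and 0.906 FPKM. It thus reached the filter only through the controls, and its call cannot be read as support for a decrease. B2m, the light chain of class I, fell to 261 ± 11.7 FPKM, against 405 ± 43.2 FPKM in the controls (log2 fold change -0.63 ± 0.09; by limma, adjusted p = 0.0428). Nlrc5 passed in 9 of 14 alternatives, B2m in 9 of 18, Tap1 in 9 of 17 and Psmb8 in 14 of 18. With a library left out, B2m held in 1 of 6 fits, that without control replicate 3, and Nlrc5 was lost without atorvastatin replicate 1 and without replicate 3 (limma adjusted p = 0.0569 and 0.0639). Without a control library Nlrc5 did not reach the filter. With control replicate 1 left out, Psmb8 no longer passed (limma adjusted p = 0.073). Tap1 was lost without control replicates 1 or 2 and without any 1 of the atorvastatin libraries (limma adjusted p from 0.0542 to 0.0928). H2-K1, a class I heavy chain, was at 149 ± 14.0 and 114 ± 9.54 FPKM and did not pass (limma adjusted p = 0.148). The ratio of H2-Ab1 to B2m was lower in every atorvastatin library, at 0.00985, 0.0119 and 0.0149 against 0.0212, 0.0234 and 0.0218 in control (difference of log2 ratios -0.88, exact permutation p = 0.1, the smallest this design allows).

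Leukocytes that carry class II constitutively left little signal in these isolates, and part of it differed between the groups. In bulk RNA, fewer cells of a type and less RNA per cell cannot be told apart. All 10 dendritic cell markers were below 1 FPKM in every library. Their sum was 0.684 to 1.30 FPKM in the controls, against 0.470 to 0.546 FPKM in the treated libraries, and Itgax, the integrin CD11c, ran from 0.333 to 0.680 and from 0.179 to 0.236 FPKM. The sum of 14 B and plasma cell markers was 6.10 to 12.8 FPKM in the controls, against 3.28 to 4.51 FPKM in the treated libraries. The immunoglobulin gene Igkc had the highest level of this list in each library. The B cell marker Ms4a1 did not exceed 0.0709 FPKM in any library, and Tnfrsf17 was listed at 0 in all.

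The macrophage and monocyte list of 13 genes summed to 29.3 to 41.2 and 28.9 to 37.0 FPKM, mostly from Mertk and Cd14. The other 11 genes summed to 4.60 to 9.88 FPKM in the controls, against 3.39 to 4.36 FPKM in the treated libraries. Lyz2 made the largest part of this sum in the controls, at 2.76, 4.19 and 1.88 FPKM, against 1.45, 0.838 and 1.17 FPKM in the treated libraries (limma adjusted p = 0.194). C1qa, C1qb and Cd68 overlapped between the groups, and the mean of Itgam was higher with atorvastatin, at 0.66 against 0.57 FPKM. Csf1r, the macrophage growth factor receptor, was at 0.324, 0.403 and 0.117 FPKM in the controls, against 0.0568, 0.0697 and 0.0911 FPKM in the treated libraries. Each of these lists was thus highest in control replicate 2, the control library with the highest class II values. In the atorvastatin group, replicate 3 had the highest class II values and the lowest sum for B and plasma cells and for dendritic cells. The sum of the other 11 macrophage genes was highest in replicate 1, at 4.36 FPKM. Csf1r was highest in replicate 3, as were the leukocyte gene Ptprc and the T and NK cell sum described below. The part of these cells in the class II difference was not tested.

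The 16 T and NK cell markers summed to 44.0, 43.6 and 24.4 FPKM in the controls, against 17.4, 20.5 and 24.6 FPKM in the treated libraries, so control replicate 3 lay within the atorvastatin range. This library was also the lowest control for H2-Ab1, H2-Aa, H2-Eb1 and Cd74, at 7.77, 4.79, 5.23 and 27.1 FPKM, each above every atorvastatin library. A relation of the T and NK sum to the class II values was not tested. Of the 9 tested T and NK cell markers none passed limma's test, and 8 were lower at an unadjusted p under 0.05. The 7 mast cell markers summed to 6.33 to 17.9 FPKM and 2.02 to 2.34 FPKM. Ptprc, the pan-leukocyte antigen CD45, was at 1.65 ± 0.44 and 0.90 ± 0.25 FPKM and overlapped (limma adjusted p = 0.275). Of 8 markers of type 3 innate lymphoid cells, which also carry class II, 2 were tested, and the sums of the list overlapped at 14.4 to 19.2 and 14.6 to 20.2 FPKM. Markers of stroma and endothelium summed to at most 1.32 FPKM in any library, with Kdr listed at 0 in all.

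**Figure D5:**
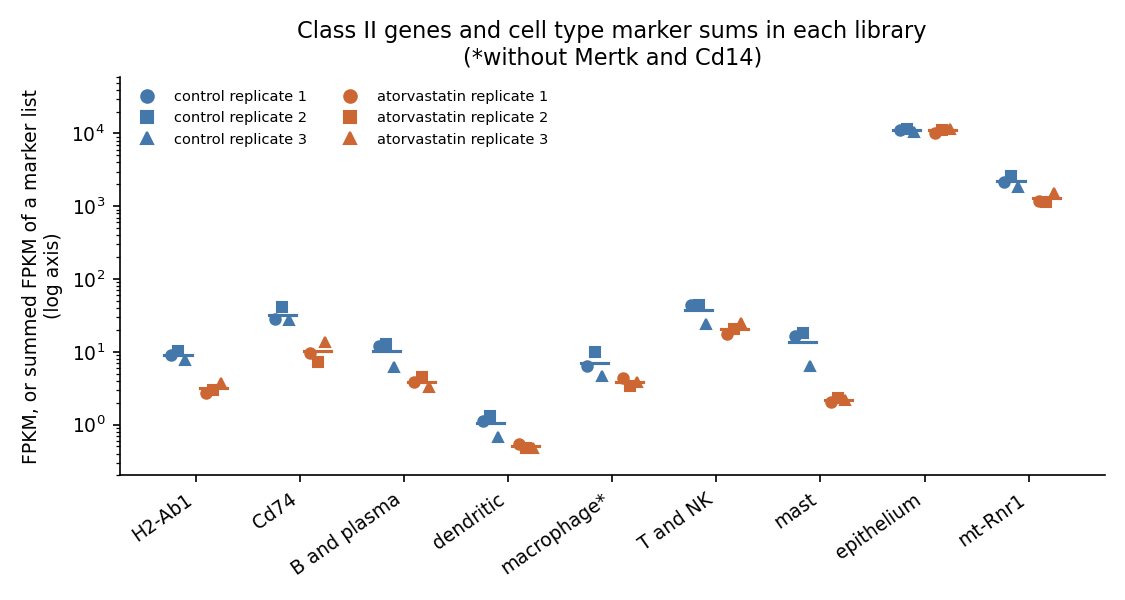
FPKM of H2-Ab1, Cd74 and mt-Rnr1, and summed FPKM of marker lists, in each library (log axis; bars are group means). The dendritic, B and plasma, mast and remaining macrophage sums do not overlap between groups, whereas the T and NK sum of control replicate 3 (24.4) lies within the atorvastatin range and the epithelial sums overlap.

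Genes whose pattern was most like that of class II were sought by Pearson correlation over the 6 libraries with the mean log2(FPKM + 1) of H2-Ab1, H2-Aa and Cd74. The groups lie apart, so this measure mainly reflects the group difference, and it is given as a description. The 6 nearest genes outside the members were H2-Q6, Acadvl, BC037034, Fam189a2, Mef2a and mt-Rnr1, with r from 0.986 to 0.994. H2-Q6, a class Ib gene of the Qa family, was the nearest and fell from 14.3 to 7.23 FPKM in the means (log2 fold change -0.89; by limma, adjusted p = 0.0184). With control replicate 1 or atorvastatin replicate 1 left out it no longer passed (limma adjusted p = 0.073 and 0.0569). H2-Q6 has near-identical neighbours in the Qa family, so its own level is uncertain. The fold changes of Acadvl and Mef2a, at -0.08 and -0.06, were far smaller and did not pass (limma adjusted p = 0.527 and 0.728).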

How the data were processed

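RNA from colon epithelial cells of 6 libraries (3 vehicle control, 3 atorvastatin) was quantified by the authors, who deposited 1 FPKM value per Ensembl gene and library. The unit was read from the values. FastQC 0.11.2, Bowtie (version not given) and the mm10 build were used, per the submitters' processing notes; for the quantification tool, annotation and strand setting the sources used here give nothing. Symbols matched 99.7% of identifiers, and coordinates came from GENCODE M21 on GRCm38.

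The log2(FPKM + 1) values were fitted here with limma 3.58.1 in R 4.3.3 (trended, robust, two-sided, no replicate block), and the fit was tested on simulated data. Ratios were tested by exact permutation with scipy 1.17.1. Files with identical values were looked for and not found. Named genes were the members, up to 4 genes of each pathway list with the smallest p, some control genes set by name, and the genes most like class II. Members and lists were chosen with earlier results of these data known. Alternatives covered the pseudocount (0.1, 0.5), the filter, scaling, the variance model, the replicate block and leaving out each library. Some genes of the lists are not reported here.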

Additional observations from a re-analysis of the deposited data

How the results depend on the processing

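The directions of the 8 tested members held in all alternatives that could be fitted, while the calls did not. The number of members called was 1, and 0 with no filter on low values, with no filter and a pseudocount of 0.1, and with the replicate block. It was 2 with equal totals (H2-Ab1 and H2-DMb1) and with the abundant and mitochondrial genes left out (H2-Ab1 and Cd74), and 0 to 3 with a library left out. The number of genes called over all tested was 47, against 2 with no filter, 4 with no filter and a pseudocount of 0.1, 1 with the replicate block, and 2 to 67 with a library left out. The median log2 fold change of the members, -0.92, was -1.15 with a pseudocount of 0.1, -0.60 with no filter (10 members tested) and -1.15 with a filter of 5 FPKM (4 members tested), and ran from -1.05 to -0.75 with a library left out. The ratio of H2-Aa to H2-Ab1 reversed to a difference of 5.93e-05 without control replicate 2 (range -0.24 to 5.93e-05), and that of Cd74 to H2-Ab1 to 0.00186 without atorvastatin replicate 2 (range -0.30 to 0.00186); neither difference had passed a test. The ratios of H2-DMa to H2-Ab1, H2-DMb1 to H2-DMa and H2-Ab1 to B2m ran from 0.80 to 0.95, -0.59 to -0.38 and -1.03 to -0.73. Same-numbered libraries did not deviate together (correlations over genes of -0.14, -0.11 and 0.01 for replicates 1, 2 and 3), so the replicate block pairs libraries that share only a number. FPKM gives no depth, so H2-DMb2 and Ciita, below 1 FPKM in every library, allow no statement on a difference.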

Other observations

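The pair of an X box and a Y box occurred in promoters of 56 gene symbols, 4 of them class II genes. Of the other 52, 13 were tested, and 8 had negative and 5 positive fold changes. Their log2 fold changes ran from -0.20 to 0.19 with a median of -0.04, and none passed limma's test. The groups did not overlap, with atorvastatin lower, for 2 of the 13, against 6.05% of all tested genes.

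March8, a ubiquitin ligase that removes class II molecules from the surface, varied widely within the groups, which overlapped. It was at 2.04, 4.60 and 2.33 FPKM in the controls, against 2.05, 7.02 and 7.51 FPKM in the treated libraries (limma adjusted p = 0.66).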
